A study of Homo sapiens with 14 samples.

Results

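The 6 genes described here, TSC22D3, FKBP5, DDIT4, SGK1, PER1 and ZBTB16, are genes known to be switched on by steroid hormones, glucocorticoids as well as androgens. They were selected by name from the 62703 genes of the count table, and they were chosen with their responses to SEL120-34A in LNCaP and 22Rv1 cells already known, so those responses are given as a description without a test. SEL120-34A is an inhibitor of CDK8 and CDK19, the kinases of the Mediator complex that links transcription factors to RNA polymerase II. The 14 libraries came from 3 prostate cancer cell lines treated for 3 days with 1.5 µM SEL120-34A or with its solvent DMSO: LNCaP and 22Rv1 with 3 libraries per arm, and PC3 with 1 library per arm. LNCaP is sensitive and 22Rv1 resistant to the androgen-blocking drug enzalutamide, and PC3 does not depend on androgens. The labels name no genetic change, and no added steroid, in any arm. They also do not say whether replicate libraries came from separate cultures, so p-values measure only the spread between these libraries.

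The glucocorticoid receptor (NR3C1) and the androgen, mineralocorticoid and progesterone receptors are ligand-activated transcription factors that are held by HSP90 chaperone complexes until a steroid binds. These receptors then recognise the same DNA element, a pair of inverted half-sites separated by 3 bases. TSC22D3 encodes the anti-inflammatory protein GILZ, FKBP5 the HSP90 co-chaperone FKBP51 that lowers steroid binding by the glucocorticoid receptor, and DDIT4 the protein REDD1, which restrains the growth kinase mTORC1. SGK1 encodes a serum- and glucocorticoid-regulated kinase, PER1 a repressor of the circadian clock, and ZBTB16 the transcription factor PLZF. FKBP5 is a widely used readout of androgen signalling in prostate cancer cells, whereas TSC22D3, DDIT4 and PER1 also answer to other signals such as FOXO factors, cellular stress and the clock.

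The DNA around the transcription starts was read to show where the shared element lies near each gene. The search used the core GNACANNNTGTNC (N is any base, both strands) within 10000 bases on either side of each start in the RefSeq promoter table for GRCh38. Of the 6 genes, 5 had a start in that table, and 4 of these had a match, at 8 distinct places in all. For comparison, 23.04% of all 35116 starts in the table had a match within the same distance. That share is per single start, whereas a gene was counted if any of its starts had a match. TSC22D3, FKBP5 and SGK1 have several starts in the table, so the count of genes and the share are not directly comparable. The matches nearest to a start are printed with 5 flanking bases on either side, 5′ to 3′ on the strand of the gene, with the core in capitals.
TSC22D3: tctggGGACAAACTGTCCggaac
FKBP5, nearer start: gctcgGGACATTGTGTTCcagcc
FKBP5, other start: gttcaGGACAGTGTGTTCagcgt
SGK1: ggaacGGACAAAATGTTCtcaga
PER1: caagaGAACATGATGTTCccaag
The TSC22D3 core lies at chrX:107716087-107716099, 415 bases downstream of a start. The FKBP5 cores lie at chr6:35728114-35728126, 463 bases downstream of one start, and at chr6:35687758-35687770, 1151 bases downstream of another. The SGK1 core lies at chr6:134176025-134176037, 1165 bases upstream of a start, and the PER1 core at chr17:8154461-8154473, 2063 bases upstream of its start. DDIT4 had no match in its window. No gene of the set held the stricter palindrome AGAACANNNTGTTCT, which was found near 0.387% of all starts, and none held the core inside the 300 bases around a start (0.390% of all promoters did). A match is a description of letters and not a measured binding site.

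**Figure D1:**
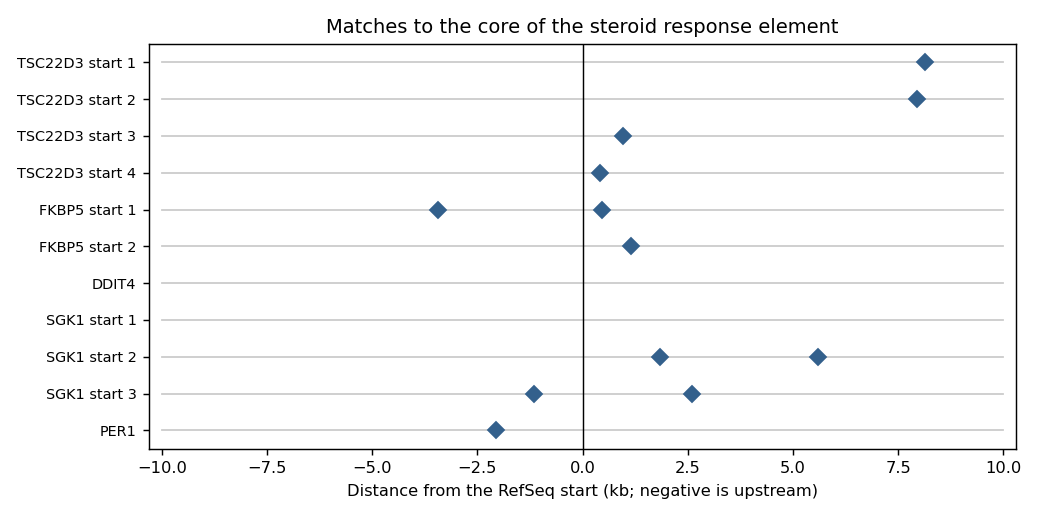
Matches to the core of the steroid response element around each RefSeq start of 5 genes, by distance in kilobases, with diamonds for matches and a grey line for the window searched. TSC22D3, FKBP5 and SGK1 have several starts in the table, PER1 has a match 2063 bases upstream, and the DDIT4 window is empty.

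Depth was low, at 246063 to 909176 counts per library, so 3 counts, taken as the floor of detection, stood for 3.27 to 12.9 CPM (counts scaled to library size with TMM factors). These floors, and all intervals below, reflect counting error alone. Line identity was checked on KLK3, which encodes prostate-specific antigen: it was at 1218 ± 167 CPM (SD, n = 3) in LNCaP DMSO and 20.4 ± 9.97 CPM in 22Rv1 DMSO, with 7 counts in PC3 DMSO. VIM, a mesenchymal marker, stood at 1262 CPM in PC3 DMSO and at a mean of 29.1 and 21.4 CPM in the other lines. Of the 7 stromal and blood markers, PTPRC, CD3E, HBB, DCN and COL1A2 had 0 counts in every DMSO library and PDGFRB had 1 in all. COL1A1 had 85 counts in PC3 DMSO and 27 and 3 over the DMSO libraries of LNCaP and 22Rv1. In bulk RNA, fewer cells that express a gene and less of its RNA per cell cannot be told apart.

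NR3C1 itself was examined before the target genes. It had 0 counts in all 3 LNCaP DMSO libraries, 9, 11 and 11 counts in 22Rv1 DMSO and 30 counts in PC3 DMSO. With 3 counts in place of 0 over the LNCaP group, NR3C1 was 9.92-fold higher in 22Rv1, a ratio that leaves out the counting error. NR3C1 was too low for the filter of the fit. In the 3 alternative fits that kept it, the difference passed, with an adjusted p of 1.24e-07 in edgeR without the filter, 1.97e-06 in edgeR with PC3 added and 6.34e-05 with limma-trend. NR3C2, the mineralocorticoid receptor, had 6 counts over the 3 DMSO libraries of each line, and PGR, the progesterone receptor, had 0 counts in every library.

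NR3C1 was then compared between the arms. It was at 17.7, 20.6 and 13.1 CPM in 22Rv1 DMSO and at 2.76, 4.29 and 8.56 CPM after SEL120-34A, so the arms did not overlap. The pooled ratio was 0.321 (95% counting interval 0.0974 to 0.832, from 31 and 5 counts), with an exact permutation p of 0.1, the smallest the design allows. In the 3 alternative fits that kept NR3C1, its response in 22Rv1 did not pass. Its log2 fold change there was -1.65 to -1.24, with an adjusted p of 0.0512 to 0.302 over edgeR and limma-trend. In PC3 the NR3C1 counts were 30 and 5, a log2 ratio of -1.90 (counting interval -3.62 to -0.52) with no replicate. In LNCaP, NR3C1 had 0 counts in DMSO and 2 over the treated libraries.

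**Figure D2:**
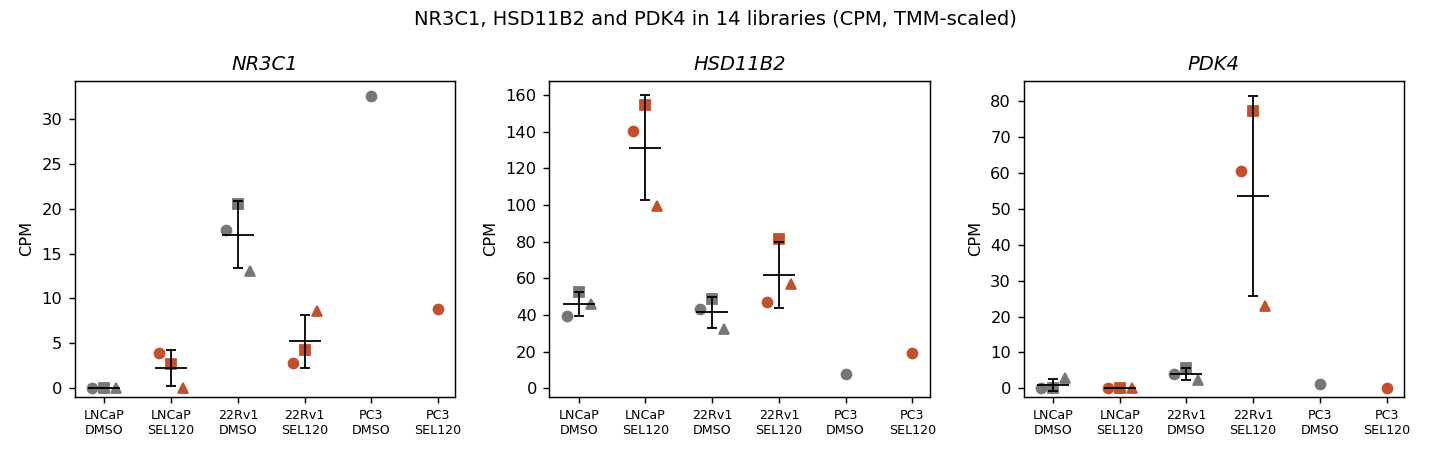
CPM of NR3C1, HSD11B2 and PDK4 in each library, with circles, squares and triangles for replicates 1, 2 and 3, grey for DMSO, orange for SEL120-34A, and bars for the mean ± SD where there are 3 libraries. NR3C1 is at 0 in all LNCaP DMSO libraries and between 13.1 and 20.6 CPM in 22Rv1 DMSO.

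To see how the target genes stood before treatment, their DMSO levels were compared across the lines. Among the 5 genes that passed the low-count filter of the fit, 3 differed between LNCaP and 22Rv1, all 3 higher in LNCaP, on a background of 24.0% of all 7086 tested genes higher in LNCaP and 25.0% higher in 22Rv1. The DMSO libraries are also those the responses were measured against, so a low control level enters both comparisons and these tests are not independent of how the genes were chosen. SGK1 did not pass the filter.

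TSC22D3 was at 40.9, 65.5 and 137 CPM in LNCaP DMSO and at 11.8, 13.1 and 5.96 CPM in 22Rv1 DMSO. Every LNCaP library lay above every 22Rv1 library, and LNCaP replicate 3 stood far above the other two. The difference was 3.08 ± 0.45 on the log2 scale (SE, 8.45-fold, adjusted p = 2.56e-07, edgeR quasi-likelihood test), with a range of 2.36 to 3.44 when single libraries were left out. PC3 DMSO, at 43.6 CPM from 40 counts, fell within the LNCaP range.

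DDIT4 showed the same order of lines. It was at 91.6, 141 and 64.3 CPM in LNCaP DMSO and at 23.6, 28.1 and 22.7 CPM in 22Rv1 DMSO, without overlap. The LNCaP level was higher by 1.93 ± 0.29 on the log2 scale (3.82-fold, adjusted p = 5.30e-07, edgeR), and PC3 DMSO stood at 82.7 CPM.

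FKBP5 was the only one of the 5 with a negative difference. Its levels were 49.3, 41.9 and 37.8 CPM in LNCaP DMSO and 58.9, 67.4 and 53.7 CPM in 22Rv1 DMSO. The libraries did not overlap, but the difference of -0.46 ± 0.24 did not pass the test (adjusted p = 0.113, edgeR). It was past the threshold with library totals in place of TMM (-0.67, adjusted p = 0.0203, edgeR) and at equal depth (-1.09, adjusted p = 0.0223). PC3 DMSO had 14.2 CPM from 13 counts, below all libraries of the other lines.

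ZBTB16 and PER1 overlapped between LNCaP and 22Rv1. ZBTB16 was at 54.9, 41.9 and 28.0 CPM in LNCaP DMSO and at 11.8, 43.05 and 16.7 CPM in 22Rv1 DMSO, where replicate 2 lay within the LNCaP range. Its difference of 0.84 ± 0.36 was just past the threshold (adjusted p = 0.0466, edgeR), and the call was kept in 11 of 20 alternatives (adjusted p 0.00198 to 0.330). Among the fits that left out 1 library, it fell away without LNCaP DMSO replicate 1 (0.52, adjusted p = 0.330 in edgeR), LNCaP DMSO replicate 2 (0.85, 0.0612), LNCaP SEL120-34A replicate 1 (0.83, 0.0559), 22Rv1 DMSO replicate 1 (0.57, 0.220) and 22Rv1 DMSO replicate 3 (0.57, 0.253). Both PC3 libraries had 0 ZBTB16 counts. With 3 counts in place of 0 for PC3 DMSO, ZBTB16 was 12.7-fold higher in LNCaP DMSO and 6.99-fold higher in 22Rv1 DMSO. These ratios leave out the counting error.

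PER1 was at 11.3, 18.3 and 19.6 CPM in LNCaP DMSO and at 9.82, 16.8 and 11.9 CPM in 22Rv1 DMSO, from 5 to 14 counts per library. The lines overlapped and the difference of 0.33 ± 0.43 did not pass the test (adjusted p = 0.545, edgeR). PC3 DMSO stood at 20.7 CPM from 19 counts.

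SGK1 exceeded 3 counts per library only in PC3. It had 30 counts (32.7 CPM) in PC3 DMSO, against 0, 1 and 0 counts in LNCaP DMSO and 2, 0 and 0 in 22Rv1 DMSO. The ratio of PC3 to LNCaP was 59.0 (counting interval 9.81 to 2410) and that of PC3 to 22Rv1 was 30.7 (7.80 to 265). The annotated SGK1 gene also contains the pseudogene KRT8P42 on the same strand, and whether reads were divided between them was not tested.

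**Figure D3:**
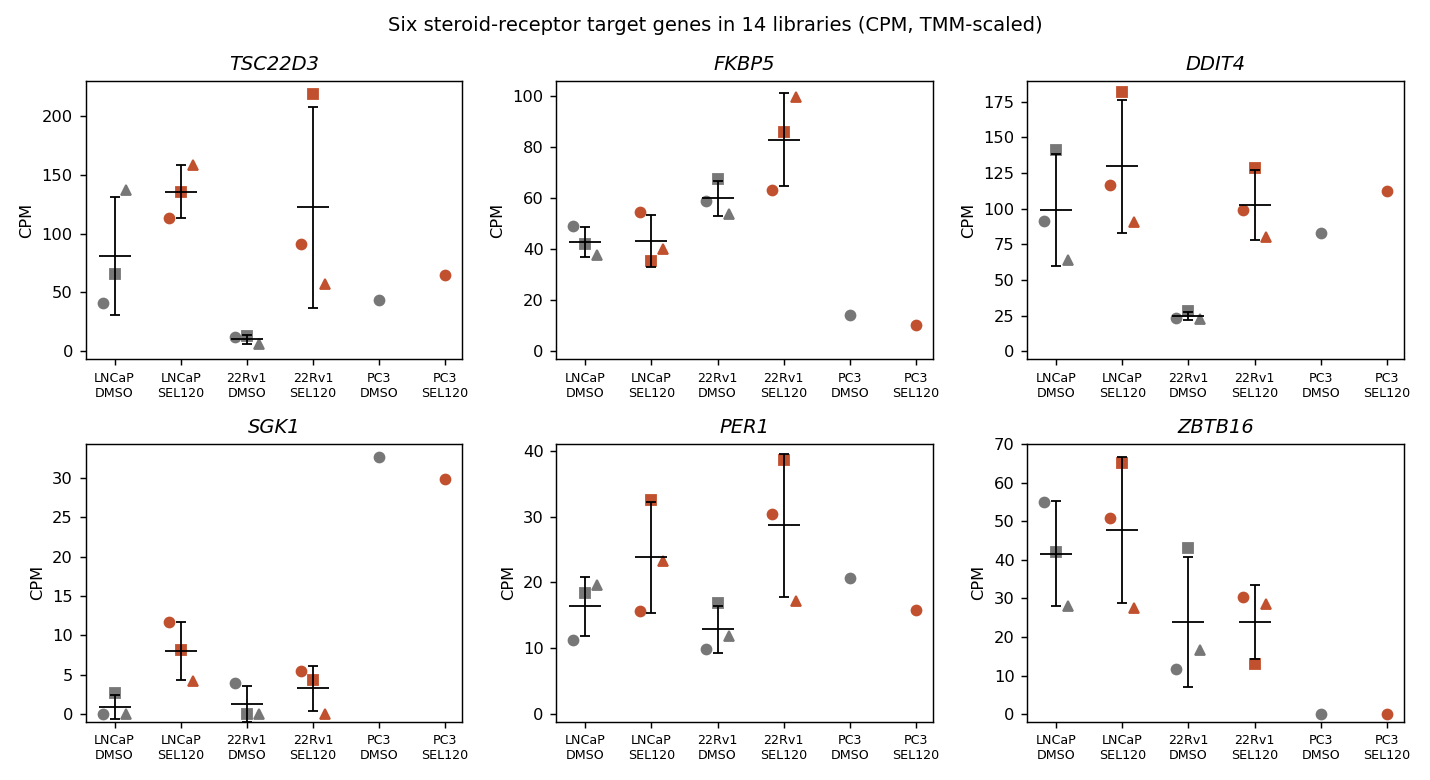
CPM of the 6 genes in each of the 14 libraries, with circles, squares and triangles for replicates 1, 2 and 3, grey for DMSO, orange for SEL120-34A, and bars for the mean ± SD where there are 3 libraries. TSC22D3 and DDIT4 are lowest in 22Rv1 DMSO, SGK1 is high in the PC3 libraries, and ZBTB16 is at 0 there.

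After SEL120-34A, the 5 fitted genes all had positive fold changes in 22Rv1, as did 3566 of all 7086 tested genes. In LNCaP 4 of the 5 were positive, beside 3550 of the 7086. The spread among the 5 genes was wide: in 22Rv1 TSC22D3 and DDIT4 stood at 3.54 and 2.03 on the log2 scale and ZBTB16 at 0.14. At an adjusted p under 0.05, 2 of the 5 were called higher in 22Rv1 and 0 in LNCaP, where 4.15% and 1.99% of all tested genes were called higher, with 1.55% and 0.776% called lower. All treated libraries lay above all controls for 3 of the 5 in 22Rv1 and for 0 in LNCaP, where the backgrounds were 12.4% and 8.76% of all genes. Since the genes were chosen on these contrasts, nothing is read from the counts.

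TSC22D3 reached 90.9, 219 and 57.0 CPM in treated 22Rv1 from control values of 5.96 to 13.1 CPM. All treated libraries were above all controls, and they were themselves widely spread, with replicate 2 highest. The fitted log2 fold change was 3.54 ± 0.46 (SE, n = 3 per arm, 11.6-fold), 2.93 without SEL120-34A replicate 2 and 3.40 with all libraries thinned to 246063 counts. In LNCaP the treated libraries, at 113, 136 and 158 CPM, overlapped with DMSO replicate 3 at 137 CPM but not with the other controls, and the fold change was 0.76 ± 0.30. Without LNCaP DMSO replicate 3 it was 1.48 ± 0.32. The treated levels of the 2 lines overlapped, at 57.0 to 219 CPM in 22Rv1 and 113 to 158 CPM in LNCaP, while their control levels did not. PC3 went from 40 to 37 counts, or 43.6 to 64.9 CPM, a log2 ratio of 0.58 (counting interval -0.11 to 1.26).

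DDIT4 was at 99.2, 129 and 79.9 CPM in treated 22Rv1, above all controls (22.7 to 28.1 CPM), with replicate 2 again highest. Its fold change there was 2.03 ± 0.32 on the log2 scale (4.09-fold) and 1.88 without SEL120-34A replicate 2. Treated LNCaP libraries were at 117, 182 and 90.8 CPM and overlapped with the controls at 64.3 to 141 CPM, with a fold change of 0.48 ± 0.24. As for TSC22D3, the control levels were apart and the treated levels of the 2 lines overlapped. In PC3 the ratio was 0.44 (counting interval -0.06 to 0.94), from 76 and 64 counts.

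PER1 was the third gene with separated arms in 22Rv1, at 30.3, 38.6 and 17.1 CPM after treatment, though replicate 3 was only just above the highest control at 16.8 CPM. The counts behind these values were 11, 9 and 6. The fold change was 1.11 ± 0.44 in 22Rv1 and 0.63 ± 0.42 in LNCaP, where treated libraries stood at 15.6, 32.5 and 23.2 CPM. Of these, replicate 1 lay within the control range of 11.3 to 19.6 CPM and the remaining libraries above it.

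For FKBP5 and ZBTB16 the arms overlapped in both lines. FKBP5 was at 54.6, 35.2 and 40.1 CPM in treated LNCaP, which overlapped with its controls (-0.01 ± 0.28), and at 63.4, 85.8 and 99.8 CPM in treated 22Rv1, where replicate 1 lay below the highest control (0.49 ± 0.24). At equal depth the LNCaP value was 0.64 ± 0.43. ZBTB16 was at 50.7, 65.1 and 27.5 CPM in treated LNCaP and 30.3, 12.9 and 28.5 CPM in treated 22Rv1, with overlap in both lines (0.18 ± 0.35 and 0.14 ± 0.45). The errors of the ZBTB16 values allow a change in either direction.

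SGK1 counts were 3, 3 and 2 in treated LNCaP against 0, 1 and 0 in DMSO, and 2, 1 and 0 in treated 22Rv1. The LNCaP arms did not overlap, with a pooled ratio of 13.2 (counting interval 1.76 to 584, from 1 and 8 counts), and no library exceeded 3 counts. In 22Rv1 the ratio of 2.98 had an interval from 0.342 to 35.7. In PC3, where the gene was well above the floor, it went from 30 to 17 counts, 32.7 to 29.8 CPM, a log2 ratio of -0.13 (counting interval -1.08 to 0.77). PER1 and FKBP5 ratios in PC3 were -0.39 (-1.72 to 0.82) and -0.43 (-2.11 to 1.07).

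**Figure D4:**
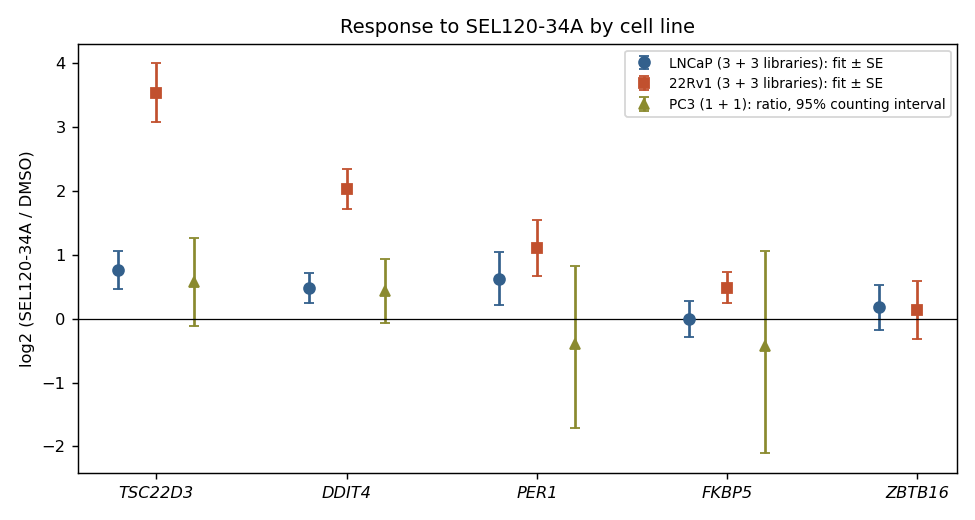
Log2 fold change of SEL120-34A against DMSO for the 5 fitted genes in LNCaP (circles) and 22Rv1 (squares) with standard errors, and the log2 ratio of the single PC3 libraries (triangles) with its 95% counting interval; ZBTB16 has no PC3 point because both libraries had 0 counts. TSC22D3 and DDIT4 stand at 3.54 and 2.03 in 22Rv1 and at 0.76 and 0.48 in LNCaP.

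The response of each gene in LNCaP was also set against that in 22Rv1. The difference, LNCaP minus 22Rv1, was -2.77 ± 0.57 for TSC22D3, -1.55 ± 0.40 for DDIT4, -0.49 ± 0.37 for FKBP5, -0.48 ± 0.60 for PER1 and 0.04 ± 0.59 for ZBTB16. TSC22D3 and DDIT4 were 2 of the 33 genes called more positive in 22Rv1, which made up 0.466% of the genes tested, and again nothing is read from that count. Without LNCaP DMSO replicate 3 the TSC22D3 difference was -2.03, and without 22Rv1 SEL120-34A replicate 2 it was -2.18.

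Library properties moved with treatment in 22Rv1. Treated 22Rv1 libraries held 246063 to 368778 counts against 476455 to 777207 in controls, cytosolic ribosomal protein genes took 8.48% to 9.40% of counts against 7.25% to 7.83%, and mitochondrial genes 9.52% to 13.1% against 7.60% to 9.82%. SEL120-34A replicate 2, the shallowest library of all, was the highest of the 22Rv1 libraries in both shares and in TSC22D3, DDIT4 and PER1. In LNCaP, treated libraries held 291056 to 519928 counts against 412881 to 759548, and mitochondrial genes took 16.5% to 23.3% against 13.9% to 17.3%, while the ribosomal protein share overlapped widely (8.63% to 9.77% against 9.12% to 9.64%). The part of these properties in the responses of the 6 genes and of the list genes described below was not tested beyond the values at equal depth and without replicate 2 given above.

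The genes most like TSC22D3, FKBP5 and DDIT4 were then listed by Pearson's r of log2 CPM over the 12 LNCaP and 22Rv1 libraries after each line's mean was removed, among 3845 genes. These values share libraries, depth and the treatment effect, so r is only a description. Among the 5 most like TSC22D3 were GDF15, a stress-induced cytokine (r = 0.985, rho = 0.916), CYSTM1 (0.964), SFN, which encodes 14-3-3 sigma (0.941), and the pseudogene RPL36AP37 (0.931). GDF15 was at 86.4, 95.5 and 76.3 CPM in 22Rv1 DMSO and at 325, 678 and 260 CPM after treatment, with replicate 2 highest as for TSC22D3. In LNCaP DMSO GDF15 was at 476, 689 and 1232 CPM, so replicate 3 was highest there too, and r within LNCaP was 0.971 over 6 libraries.

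Among the 5 most like DDIT4 were the splicing factor gene BUD31 (r = 0.971, rho = 0.979), TIMM8B of mitochondrial protein import (0.934), TMA7 (0.928) and RPL36AL (0.927). FKBP5 had lower values, with TSTD1 (r = 0.888, rho = 0.909), SLC12A9 (0.869), TMEM132A (0.857), NADK (0.843) and TMEM59 (0.838). No gene appeared in more than one of these 3 lists of 5. RPL36AP37 may share reads with other copies of its parent gene, and its value is uncertain.

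The rest of the steroid pathway was described from 7 lists of 140 genes, 82 of which were tested. The lists were written with earlier results of these data known. Counts and p-values of list genes, here and below, are therefore descriptions, and nothing is read from the counts. Of the 82, 6 were higher and 2 lower in treated LNCaP, where 1.99% and 0.776% of all tested genes were, and 9 were higher and 5 lower in treated 22Rv1, where 4.15% and 1.55% were. The median log2 fold change was 0.17 in LNCaP and 0.05 in 22Rv1, beside 0.0008 and 0.0025 over all tested genes.

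Among receptors and their chaperones and coregulators (13 tested, median -0.05 in LNCaP and -0.44 in 22Rv1), 4 were lower in 22Rv1 and 0 in LNCaP. The HSP90 genes HSP90AA1 and HSP90AB1 fell in 22Rv1, from 785 ± 156 to 419 ± 57.4 CPM (log2 -0.88, adjusted p = 3.81e-05, edgeR) and from 1965 ± 331 to 1349 ± 232 CPM (-0.53, adjusted p = 0.0150). The HSP90AB1 call was lost without 22Rv1 DMSO replicate 3 (adjusted p = 0.124, edgeR) or SEL120-34A replicate 2 (0.156), and with limma-trend (0.115). HSPA8, a chaperone of the HSP70 family, fell by 0.67 on the log2 scale (adjusted p = 0.00114). In LNCaP the list had 1 gene past the threshold, HSD11B2, which encodes the enzyme that inactivates cortisol. HSD11B2 rose from 46.0 ± 6.46 to 131 ± 28.7 CPM (1.54 ± 0.24 on the log2 scale, adjusted p = 4.13e-05, edgeR).

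Of the other glucocorticoid-induced genes (14 tested, median 0.12 in LNCaP and 0.20 in 22Rv1), 2 were higher and 0 lower in each line. PDK4, a mitochondrial kinase that limits glucose oxidation, was at 3.93, 5.62 and 2.39 CPM in 22Rv1 DMSO and rose to 60.6, 77.3 and 22.8 CPM (3.70 ± 0.55, adjusted p = 1.30e-05, edgeR). The control values rest on 2 or 3 counts per library, the treated values on 22, 18 and 8. PDK4 passed the low-count filter only through the treated 22Rv1 libraries, so its fold change and p-value are given as a description. In LNCaP, PDK4 had 0, 0 and 2 counts in DMSO and 0 counts in all treated libraries, under the floor of 3 counts in both arms. The metallothionein gene MT2A rose in LNCaP, from 21.4 ± 4.03 to 62.0 ± 13.8 CPM (1.57 ± 0.31, adjusted p = 0.00149 in edgeR and 0.0601 with limma-trend). ATP1B1, a subunit of the sodium pump, rose in LNCaP by 0.64 (adjusted p = 0.00897, edgeR) and in 22Rv1 by 0.99 (adjusted p = 0.00834). The ATP1B1 call was lost in LNCaP without DMSO replicate 2 (adjusted p = 0.0891, edgeR) or SEL120-34A replicate 2 (0.0845), without the low-count filter (0.0864) and with limma-trend (0.120), and in 22Rv1 when DMSO replicate 3 (0.0584) or SEL120-34A replicate 1 (0.108) was removed and at equal depth (log2 0.37, 0.551).

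Other androgen-induced genes (19 tested) split in both lines, with medians of 0.19 in LNCaP and -0.11 in 22Rv1. In LNCaP 1 was higher and 2 were lower. The kallikrein genes KLK3 and KLK2 fell by 1.82 and by 1.37 on the log2 scale (adjusted p = 1.35e-11 and 2.85e-08, edgeR), whereas KLK4 rose from 161 ± 23.3 to 273 ± 35.2 CPM (0.77, adjusted p = 0.00276). In 22Rv1 5 were higher and 1 was lower. KLK4 rose there from 241 ± 18.4 to 466 ± 63.2 CPM (0.96, adjusted p = 1.81e-05), and IDI1 of isoprenoid synthesis, TPD52 and PMEPA1 rose by 0.83, 1.04 and 0.86. The PMEPA1 call was lost without 22Rv1 DMSO replicate 3 (adjusted p = 0.0647, edgeR) and with limma-trend (0.151), and that of IDI1 with limma-trend (0.0842). The remaining calls, TMPRSS2 (1.89) and ACSL3 (-0.80), were named after their values were seen, and each dropped below the threshold in 4 of 12 fits with 1 library removed, TMPRSS2 also at equal depth (0.147) and with limma-trend (0.0657). KLK2, KLK3 and KLK4 are related neighbouring genes among which reads could be divided.

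Stress-induced genes that share inducers with DDIT4 had 12 tested members, with positive fold changes for all 12 in LNCaP (median 0.40) and for 9 in 22Rv1 (median 0.17). Over all 7086 tested genes, 3550 were positive in LNCaP and 3566 in 22Rv1. Of the 12, 2 passed the test in LNCaP. They were GADD45A, a growth-arrest gene (1.38 ± 0.27, adjusted p = 0.00117, edgeR), and CDKN1A, which encodes the cell cycle inhibitor p21 (0.85, adjusted p = 0.00801). CDKN1A no longer passed when LNCaP DMSO replicate 3 (adjusted p = 0.139, edgeR) or SEL120-34A replicate 2 (0.140) was left out, with limma-trend (0.236) and at equal depth (0.0733). Limma-trend also ended the GADD45A call in LNCaP (0.253). GADD45A was the 1 gene of the list past the threshold in 22Rv1 (1.45, adjusted p = 0.0180), although its libraries overlapped between the arms. That call was lost without 22Rv1 DMSO replicates 2 or 3 (adjusted p = 0.0855 and 0.0549, edgeR) or SEL120-34A replicates 1 or 2 (0.260 and 0.0933), at equal depth (0.132) and with limma-trend (0.153).

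Of the 12 tested mTORC1 and kinase partners of DDIT4 and SGK1, none passed in LNCaP (median -0.07) and 1 did in 22Rv1 (median 0.07). That gene was TXN, which encodes thioredoxin (351 ± 4.37 to 568 ± 54.5 CPM, log2 0.70, adjusted p = 0.000594, edgeR). The 10 tested family relatives of the 6 genes had 0 calls in either line (medians 0.08 and 0.18). The 3 tested circadian clock genes had 0 calls as well (0.29 and -0.17).

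**Figure D5:**
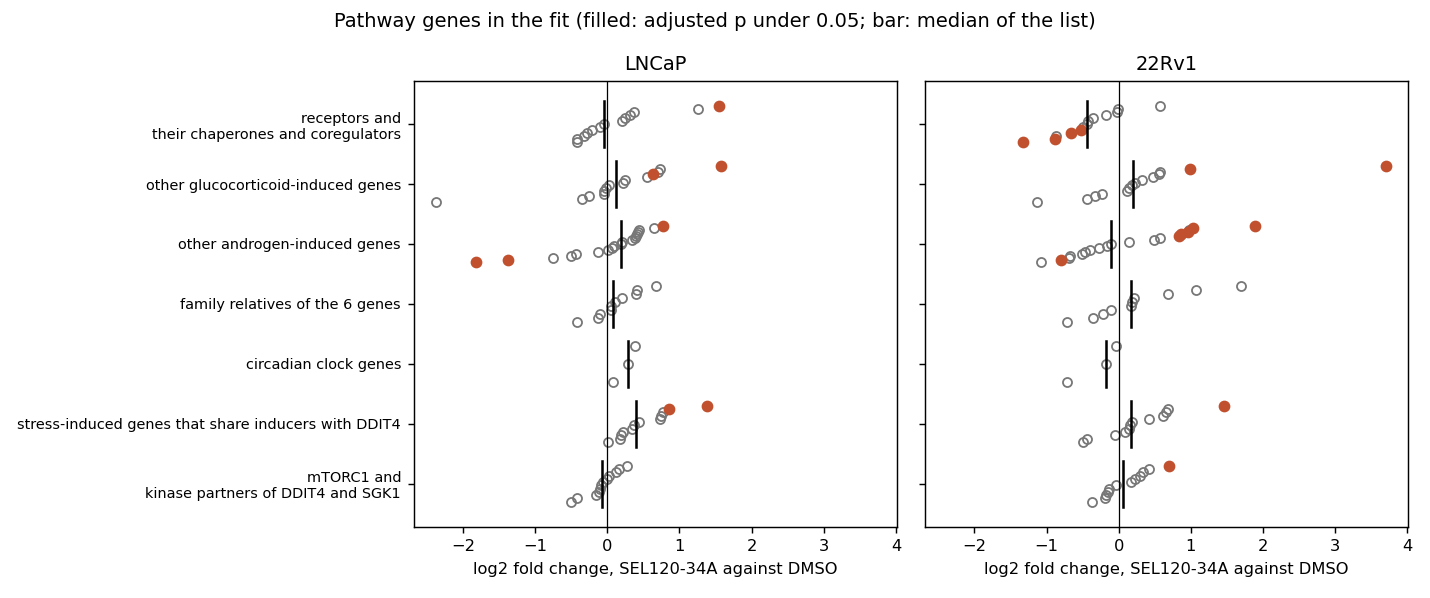
Log2 fold change of SEL120-34A against DMSO for the 82 tested genes of 7 lists in LNCaP (left) and 22Rv1 (right), with 1 point per gene, filled where the adjusted p was under 0.05, and a bar at the median of the list. All 12 stress-induced genes lie above 0 in LNCaP, where 3550 of all 7086 tested genes do. The median of receptors and chaperones is -0.44 in 22Rv1.

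In the DMSO libraries, 33 of the 82 list genes were higher in LNCaP and 18 in 22Rv1 (median 0.20), beside 24.0% and 25.0% of all tested genes, and the counts of several single lists were near those shares. The androgen-induced list stood furthest to the LNCaP side, with 11 of 19 higher there, 4 lower and a median of 1.34. Its smallest adjusted p-values were those of KLK3 (log2 difference 5.93), KLK2 (4.06), SORD (3.08) and TPD52 (2.20). Glucocorticoid-induced genes were divided, with 4 higher in LNCaP and 5 in 22Rv1. ATP1B1 (2.49) and MAOA (1.24) were higher in LNCaP, and NFKBIA (-1.63) and MT2A (-1.61) in 22Rv1. Among relatives of the 6 genes 5 of 10 were higher in LNCaP and 0 in 22Rv1. These included DDIT4L, the paralogue of DDIT4, at 105 ± 20.8 CPM in LNCaP and 1.59 ± 2.75 CPM in 22Rv1 (5.44 ± 0.44, adjusted p = 1.13e-13, edgeR), and TSC22D1 at 125 ± 37.4 and 19.98 ± 9.20 CPM (2.57 ± 0.28, adjusted p = 3.89e-10). The DDIT4L mean in 22Rv1 lay under the floor of 3 counts (3.58 to 5.89 CPM in these libraries). Its log2 difference is therefore not a measured ratio, and its p-value is given as a description. The remaining lists had 5 higher and 3 lower of 12 stress-induced genes, 6 and 2 of 12 mTORC1 and kinase partners, 1 and 2 of 3 clock genes, and 1 and 2 of 13 receptors and chaperones.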

How the data were processed

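Messenger RNA 3′ ends were sequenced by BRB-seq, which pools barcoded samples, in 14 libraries of LNCaP, 22Rv1 and PC3 cells, grouped by the sample titles. The authors used STARsolo with GRCh38.p13 and GENCODE 43 for alignment and counting, per the labels and the published methods, and deposited raw counts per gene. Whether molecular identifiers were collapsed, and which strand setting was used, is not given in the sources used here. The authors also deposited log2 CPM values for 9638 genes. TMM factors and a prior count of 2 applied to the counts gave those values to within 5e-14.

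The counts of the 12 LNCaP and 22Rv1 libraries were fitted with edgeR 4.0.16 in R 4.3.3, with 1 mean per group, TMM factors and the quasi-likelihood F-test. The low-count filter left 7086 genes (8 residual degrees of freedom, common biological coefficient of variation 11.1%). P-values were adjusted by the Benjamini-Hochberg method across these 7086 genes, with a threshold of 0.05. CPM levels, as mean ± SD, use TMM factors of all 14 libraries. PC3, with 1 library per arm, and genes under the filter have ratios with exact binomial counting intervals (95%). The script was tested on simulated counts. Within groups, counts varied beyond counting error (chi-square per degree of freedom 1.29 to 2.44), so none was counted as a duplicate.

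The 6 genes and the 7 lists (144 entries, 140 genes, written from general knowledge) were chosen with earlier results of these data known. Named beside the 6 genes were NR3C1, NR3C2 and PGR, KLK3 as a check of the line labels, up to 4 list genes per list and contrast with the smallest adjusted p, and the 5 genes most like each of TSC22D3, FKBP5, DDIT4 and SGK1, which had to have a mean of at least 20 counts. SGK1 was under the filter and had no such ranking. Some genes that this rule names are counted with their lists but are not reported here. Gene annotation was GENCODE 44 on GRCh38, and starts and promoters were from RefSeq. The settings tried in addition were DESeq2 size factors, library totals, the DESeq2 1.42.0 Wald test, a block for the replicate number, a filter of at least 10 counts in all 12 libraries, none at all, fits of a single line, a fit with PC3, libraries thinned to 246063 counts, limma-trend (limma 3.58.1) on the deposited log2 values, and each library left out.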

Additional observations from a re-analysis of the deposited data

Results flagged for a closer look

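In 5 of the 87 tested genes of the set and its lists, the response to SEL120-34A differed between LNCaP and 22Rv1 by the interaction contrast of the edgeR fit, which compares the fold changes of the lines directly over 6 libraries each. Over all 7086 genes, 33 were more positive in 22Rv1 (0.466%) and 19 in LNCaP. For the target genes TSC22D3 (log2 difference, LNCaP minus 22Rv1, -2.77) and DDIT4 (-1.55) this contrast was known when the genes were chosen, so it stands as a description. Both differences were negative in all alternatives that fitted them, with ranges of -3.16 to -2.03 and of -1.89 to -1.27.

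The lists, too, were written with earlier results known, so the p-values of list genes are descriptions. Among the list genes, MT2A differed by 1.79 ± 0.41 (adjusted p = 0.0237, edgeR), with a log2 fold change of 1.57 in LNCaP and -0.22 in 22Rv1. SPDEF, a prostate epithelial transcription factor named here because of this difference, stood at -1.74 ± 0.40 (adjusted p = 0.0265), from -0.76 in LNCaP and 0.98 in 22Rv1. HSP90AA1 differed by 0.78 ± 0.20 (adjusted p = 0.0461), from -0.10 and -0.88. The call was kept in 12 of 19 alternatives for MT2A (adjusted p 0.00639 to 0.155), in 13 of 20 for SPDEF (0.00583 to 0.213) and in 9 of 21 for HSP90AA1 (0.0190 to 0.211). The causes were not tested.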

How the results depend on the processing

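The direction of the values named above did not reverse in any alternative in which the main value was past the threshold. In 22Rv1 the TSC22D3 fold change ranged from 2.93 to 3.91 and that of DDIT4 from 1.87 to 2.20. The 6 genes were chosen with their responses known, so the counts of them called in this section only describe the settings. Nothing else is read from these counts, and the share of all tested genes called under each setting was not set beside them. Requiring at least 10 counts in every library kept only 2 of the 6 genes in the test, and the counts of those called were then 1 in 22Rv1, 0 for the difference between lines and 1 for the DMSO levels, with 5 list genes called in LNCaP and 28 in the DMSO comparison (8 and 51 otherwise). For the difference between lines, 2 of the 6 genes were called in the main analysis, 1 with library totals, 1 with the DESeq2 Wald test, 0 with limma-trend, 0 at equal depth, and 0 to 2 when single libraries were left out, with 0 without 22Rv1 DMSO replicate 3 or SEL120-34A replicate 2. In LNCaP 0 to 1 of the genes were called with a library left out, the 1 being TSC22D3 without DMSO replicate 3. Limma-trend called 4 list genes in LNCaP. In 22Rv1, 9 to 17 list genes were called with a library left out, against 14 with all, and the 9 arose without SEL120-34A replicates 1 or 2. The causes were not tested. Library totals moved the median of all genes by -0.08 in LNCaP, -0.14 in 22Rv1 and -0.24 between the DMSO arms. At equal depth the FKBP5 difference between lines, which was not called, was 0.25 in place of -0.49. Of 1359 single-gene values recomputed, 1257 kept their direction and their side of the threshold (or, where no test was given, stayed within the spread), 92 dropped below it, 6 passed it and 4 moved by more than the spread.

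Over 12 pairs of same-numbered libraries the correlation of their deviations ranged from -0.112 to 0.199. Only 3 of the 12 were above 0.1, 2 of them between the LNCaP arms (0.170 and 0.199 for replicates 1 and 3). Libraries of the LNCaP arms with different numbers gave -0.239 to 0.0733. These values do not settle whether the LNCaP libraries were paired. The labels tie the numbers to nothing shared, and the libraries were not treated as paired. With the replicate block, 0, 2, 2 and 3 of the 6 genes were called in LNCaP, in 22Rv1, for the difference and for the DMSO levels, the same counts as without it. List genes called with the block were 12 in LNCaP, 19 in 22Rv1 and 52 in the DMSO comparison. The depth limits what can be said of SGK1 and NR3C1 outside PC3, and of PER1.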
